A study of Mus musculus with 6 samples.

Results

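Mouse cochlear organoids from stiff and soft hydrogels were compared for 9 genes of the ATF4 axis and of serine synthesis. The 9 genes (Atf4, Ddit3, Trib3, Chac1, Asns, Phgdh, Psat1, Psph and Shmt2) were taken by name from the 15016 genes of the deposited table. All 9 were listed, and all 9 passed the filter on low values that left 11780 genes for testing. The organoids were grown from wild-type (WT) cochlear progenitor cells for 8 to 10 days in an expansion medium with EGF, bFGF, IGF, CHIR99021, valproic acid, 2-phospho-L-ascorbic acid and 616452. They were then moved to a differentiation medium that kept CHIR99021, which inhibits GSK3, and added LY411575, which inhibits gamma-secretase and so Notch signalling. At that stage organoids went into stiff or soft GelMA-HA-RGD hydrogels, with 3 libraries in each group, and both groups shared the media. The sources used here give no animal age, gel stiffness in units or time in the gels. Nor do the labels state that the 3 libraries of a group were separate cultures; the p-values therefore cover the variation among these libraries, which may be technical.

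ATF4 is a bZIP transcription factor at the end of the integrated stress response, in which kinases that phosphorylate the initiation factor eIF2 slow general translation but favour translation of the Atf4 messenger. Its RNA level therefore need not follow its protein level. ATF4 raises genes for amino acid supply, among them Asns and the enzymes of serine synthesis, and, under lasting stress, Ddit3 (CHOP), Trib3 and Chac1. Serine is made from a glycolytic intermediate in 3 steps, run by PHGDH, PSAT1 and PSPH, and SHMT2 then splits it in mitochondria into glycine and a one-carbon unit for the folate cycle.

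ATF4, paired with a C/EBP protein, binds a composite element whose common form is TGATGNAAN. Promoter windows from RefSeq (build GRCm38.p6, 250 bases before to 50 bases after each gene start) were found for all 9 genes, and the element was looked for on both strands. It was present in 3 of the 9, against 3.95% of all 32851 windows and 2.41% of the 9427 tested genes with a window. The windows of Chac1 and Asns are shown upstream of the RefSeq gene start because they hold the element there, with its letters in capitals. In Chac1 (chr2:119350992-119351241, plus strand) it lies on the opposite strand at positions -194 to -186 from the RefSeq gene start. In Asns (chr6:7693210-7693459, minus strand) it lies at -23 to -15 from the RefSeq gene start. The GENCODE gene span of Asns, which reaches 7693254, covers the element, so it is upstream of the RefSeq start only.
Chac1: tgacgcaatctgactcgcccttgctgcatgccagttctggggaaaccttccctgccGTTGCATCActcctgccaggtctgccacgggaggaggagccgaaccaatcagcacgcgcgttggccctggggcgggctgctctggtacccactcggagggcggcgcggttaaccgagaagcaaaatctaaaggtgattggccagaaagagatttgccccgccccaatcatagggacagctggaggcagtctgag
Asns: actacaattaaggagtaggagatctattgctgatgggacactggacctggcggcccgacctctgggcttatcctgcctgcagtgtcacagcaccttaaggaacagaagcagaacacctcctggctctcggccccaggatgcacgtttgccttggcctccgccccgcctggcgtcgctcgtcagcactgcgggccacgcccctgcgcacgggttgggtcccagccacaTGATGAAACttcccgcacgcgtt
The third match, TTTACATCA on the opposite strand, lies at positions 14 to 22 after the RefSeq gene start of Trib3. It is upstream of the GENCODE start of Trib3 (152344032, minus strand). Both Psat1 windows and the windows of Atf4, Ddit3, Phgdh, Psph and Shmt2 held no match to these letters. The ER stress element, also searched on both strands, was in 0 of the 9 and in 0.119% of all windows. The 3 genes with the response element were those whose means lay lowest in stiff relative to soft gels, but none of them passed the test. Whether the element bears on the direction of change was not tested. Of the 227 tested genes with the element, 9 rose and 6 fell in stiff gels, which is 6.61% of them against 5.81% of all tested genes. Their median log2 fold change, stiff minus soft, was 0.012, beside 0.027 over all tested genes.

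Libraries held 16108470 to 17899391 reads over the listed genes, rebuilt from the deposited values. Soft replicate 1 was the highest soft library for 43.5% of tested genes, against 29.1% for soft replicate 2 and 27.4% for soft replicate 3. In the mean standardized profile of the 9 genes, soft replicate 2 lay as far from the mean (-0.89) as soft replicate 1 (0.89). Of the fits without 1 library, only that without soft replicate 1 called any member, so results that rest on it are given with and without it. All 12 supporting and prosensory cell markers were listed, and their summed level was 723 to 798 FPKM (reads scaled to gene length and library depth) in stiff gels and 451 to 580 FPKM in soft gels; Prox1 and Fgfr3 averaged under 1 FPKM in both groups. Of 10 tested markers 7 rose and 0 fell, against 3.13% of all tested genes higher and 2.68% lower (limma adjusted p under 0.05). Gjb6, among the 7, passed the filter on low values only through stiff gels (1.27 FPKM, against 0.663 FPKM in soft gels). Among hair cell markers, Gfi1 and Otof averaged at most 0.109 FPKM, and Atoh1, Pou4f3, Pvalb and Lhx3 were not analysed here. Myo6 averaged 23.3 and 21.8 FPKM in stiff and soft gels, and Calb2 10.5 and 5.03 FPKM (limma adjusted p = 0.0409). Of 4 tested hair cell markers 1 rose (Calb2), of 6 glial markers 3 rose, and of 4 neuron markers 1 rose and 1 fell. Of 4 endothelial markers 1 fell, and 0 of 6 mesenchyme markers rose or fell. Summed levels in stiff and soft gels were 35.7 to 43.1 and 31.1 to 33.2 FPKM for 8 hair cell markers, 124 to 149 and 97.1 to 129 FPKM for 7 glial markers, and 34.3 to 37.3 and 23.2 to 26.7 FPKM for 7 neuron markers. They were 633 to 670 and 484 to 631 FPKM for 8 mesenchyme markers, 340.2 to 426 and 391 to 457 FPKM for 5 endothelial markers, and 4.85 to 6.82 and 4.58 to 6.59 FPKM for 2 macrophage markers; the 1 listed red cell gene was at most 0.502 FPKM. Few genes made up most of several sums (mean FPKM in stiff and soft gels). Emcn (357 and 396) held most of the endothelial sum, while Pecam1 (0.0531 and 0.0672) was near 0. Lum (411 and 326) and Dcn (181 and 125) held most of the mesenchyme sum, while Col1a1 (0.117 and 0.184) and Col1a2 (0.127 and 0.515) were near 0. Isl1 (30.7 and 16.6) held most of the neuron sum and rose, while Gap43 (1.58 and 5.90) fell. The part of cell makeup in the values below was not tested. In bulk RNA, fewer cells of a type and less RNA per cell cannot be told apart.

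None of the 9 genes passed the test with all 6 libraries. By limma on log2(FPKM + 1), 0 of 9 had a Benjamini-Hochberg adjusted p under 0.05 (were called), against 5.81% of all tested genes (3.13% higher and 2.68% lower). At an unadjusted p under 0.05 there were 3, Psph on the higher side and Trib3 and Chac1 on the lower side, against 21.7% of all tested genes (12.7% higher and 9.04% lower). Limma-voom on rebuilt reads called 0 of 9, against 7.84% of all genes it tested. The authors' deposited table also had 0 of 9 at a q under 0.05, against 4.09% of the same tested genes higher and 5.37% lower. Groups did not overlap for 2 genes, Psph (higher) and Trib3 (lower), against 25.9% of all tested genes (15.5% higher and 10.4% lower). The median log2 fold change, stiff minus soft, was -0.17 for the 5 genes of the ATF4 axis and 0.17 for the 4 serine genes, beside 0.027 over all tested genes. Fold changes on this scale understate the change of genes with low values.

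**Figure D1:**
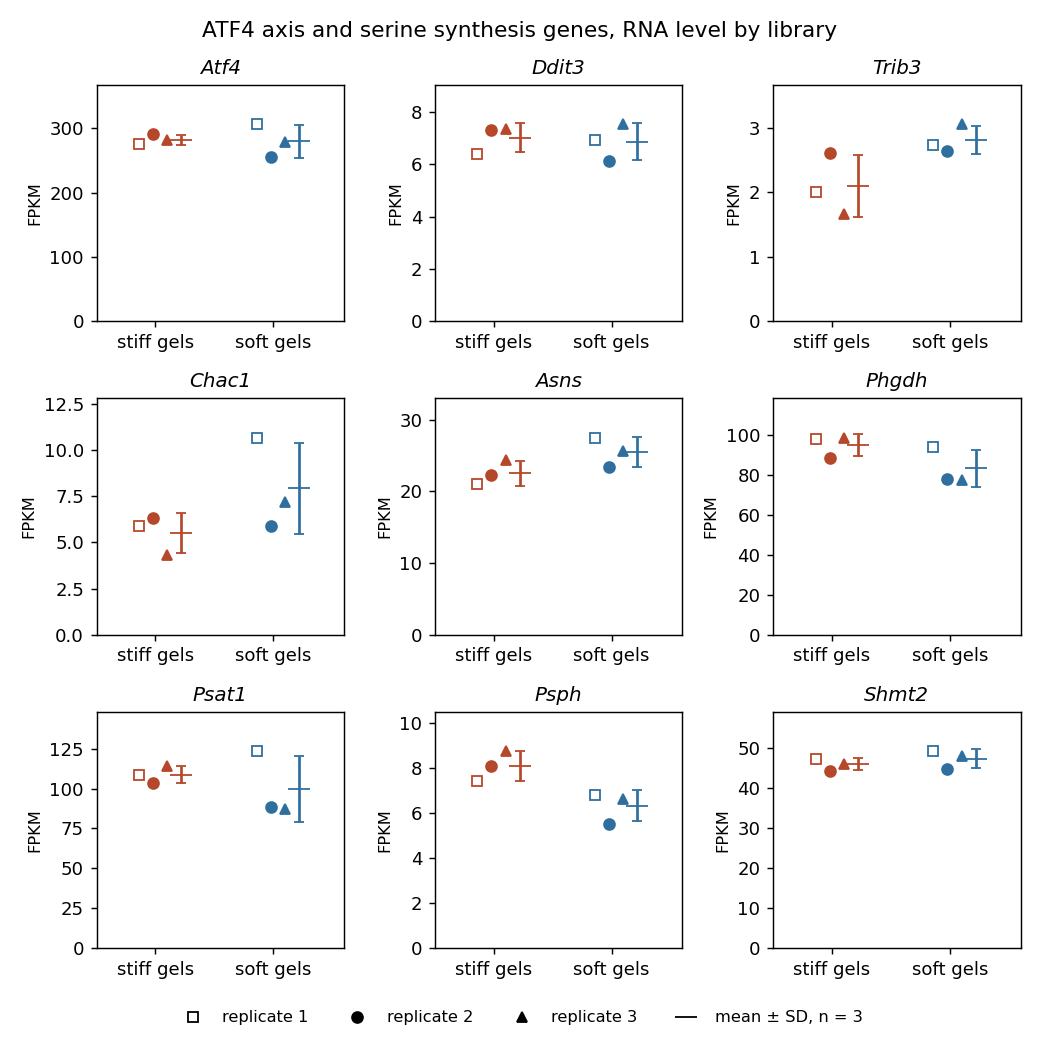
FPKM (vertical axis, from 0) of the 9 genes in stiff gels and soft gels; symbols are single libraries and bars are mean ± SD (n = 3). Psph and Trib3 are the genes whose groups do not overlap, and soft replicate 1 (open square on the soft side) is the highest soft library for 7 of the 9 genes.

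The genes spanned a wide range of RNA levels, and their order can be compared because FPKM is scaled to length. Atf4 was the most abundant, at 281 FPKM over the 6 libraries, above 98.5% of the tested genes. Psat1 (104 FPKM) and Phgdh (89.2 FPKM) came next; their ranges overlapped, although Psat1 was above Phgdh in all 6 libraries. Shmt2 followed at 46.6 FPKM and Asns at 24.0 FPKM, each clear of its neighbours in every library. Psph (7.22 FPKM), Ddit3 (6.94 FPKM) and Chac1 (6.72 FPKM) had overlapping ranges; Psph was above Ddit3 in 3 of 6 libraries, so the order among them is not separated by the spread. Trib3 was lowest, at 2.45 FPKM.

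No difference between the gels was detected for the regulator itself. Atf4 (chromosome 15, 80255184 to 80257541, build mm10 by GENCODE M21) had 275, 290.1 and 281 FPKM in stiff gels, against 306, 255 and 278 FPKM in soft gels. The soft libraries included both the highest and the lowest value and enclosed all 3 stiff ones. The log2 fold change was 0.016 ± 0.078 (SE; 95% interval -0.16 to 0.19; limma adjusted p = 0.94), with 6550 to 7662 reads per library. Its sign was negative with median-ratio scaling (-0.012) and in the authors' deposited table (-0.015). Without soft replicate 1 it was 0.083 (limma adjusted p = 0.516).

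Ddit3 encodes CHOP, a bZIP factor known for its part in cell death under lasting ER stress (chromosome 10, 127290774 to 127296288). It had 6.39, 7.32 and 7.35 FPKM in stiff gels and 6.93, 6.13 and 7.53 FPKM in soft gels, so the groups overlapped fully. Its log2 fold change was 0.03 ± 0.089 (SE; 95% interval -0.17 to 0.23; limma adjusted p = 0.899). Its exons share 68 bases with those of Mars on the other strand, and the kit does not mark strand, so reads there cannot be told apart.

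Trib3 and Chac1, which are known to follow ATF4 and CHOP under stress, had lower means in stiff gels, and neither passed the test. Trib3, a pseudokinase gene (chromosome 2, 152337422 to 152344032), had 2.00, 2.61 and 1.66 FPKM in stiff gels, against 2.73, 2.64 and 3.05 FPKM in soft gels. Every stiff library lay below every soft one, by a narrow margin between stiff replicate 2 and soft replicate 2. For Trib3 the log2 fold change was -0.31 ± 0.12 (SE; 95% interval -0.58 to -0.045; limma adjusted p = 0.161). These values rest on 55 to 112 reads per library, the fewest of the 9 genes. Chac1, whose product degrades glutathione (chromosome 2, 119351229 to 119354381), had 5.90, 6.34 and 4.31 FPKM in stiff gels, against 10.7, 5.91 and 7.19 FPKM in soft gels. Soft replicate 1 was 1.63 times the mean of soft replicates 2 and 3, and soft replicate 2 lay within the stiff range. For Chac1 the fold change was -0.43 ± 0.19 (SE; 95% interval -0.86 to -0.0073; limma adjusted p = 0.223), and -0.22 ± 0.14 (SE; adjusted p = 0.354) without soft replicate 1.

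Asns, the gene of the enzyme that makes asparagine from aspartate and glutamine (chromosome 6, 7675169 to 7693254), had 20.97, 22.2 and 24.4 FPKM in stiff gels and 27.5, 23.3 and 25.6 FPKM in soft gels. Stiff replicate 3 lay above soft replicate 2, so the groups overlapped. Its log2 fold change was -0.17 ± 0.081 (SE; 95% interval -0.35 to 0.014; limma adjusted p = 0.269), on 884 to 1127 reads per library.

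The serine synthesis enzymes had higher means in stiff gels at all 3 steps. Phgdh, the gene of the first enzyme (chromosome 3, 98313170 to 98339990), had 98.0, 88.6 and 98.6 FPKM in stiff gels, against 94.0, 78.1 and 77.7 FPKM in soft gels. Soft replicate 1 lay within the stiff range and the other soft libraries lay below it. The log2 fold change was 0.19 ± 0.086 (SE; 95% interval -0.0024 to 0.39; limma adjusted p = 0.237). A processed pseudogene, Phgdh-ps1 on chromosome 7, is annotated, and the sources used here do not say how reads shared with it were counted.

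Psat1, the aminotransferase of the second step (chromosome 19, 15904678 to 15947337), had 108, 104 and 114 FPKM in stiff gels, against 124, 88.7 and 87.0 FPKM in soft gels. Soft replicate 1 was the highest of all 6 libraries, at 1.41 times the mean of soft replicates 2 and 3, which were the lowest. For Psat1 the log2 fold change was 0.14 ± 0.12 (SE; 95% interval -0.14 to 0.42; limma adjusted p = 0.585).

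Psph, the phosphatase of the last step (chromosome 5, 129765558 to 129787449), had 7.45, 8.09 and 8.77 FPKM in stiff gels, against 6.81, 5.54 and 6.65 FPKM in soft gels. Every stiff library lay above every soft one. The log2 fold change was 0.31 ± 0.091 (SE; 95% interval 0.11 to 0.52), and the limma adjusted p of 0.0824 was the lowest of the 9 genes. Psph exons share 452 bases with exons of Cct6a, a chaperonin subunit gene on the other strand, so reads of that stretch cannot be told apart. Cct6a averaged 136 FPKM in stiff gels and 136 FPKM in soft gels (log2 fold change -0.0017, limma adjusted p = 0.993).

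Shmt2, the mitochondrial hydroxymethyltransferase gene (chromosome 10, 127517123 to 127522444), did not share that direction. It had 47.3, 44.3 and 46.0 FPKM in stiff gels and 49.2, 44.7 and 47.9 FPKM in soft gels, with overlapping groups. The log2 fold change was -0.042 ± 0.062 (SE; 95% interval -0.18 to 0.099; limma adjusted p = 0.772), and it was the least variable of the 9 genes, with a coefficient of variation of 4.12% over the 6 libraries. Its exons share 32 bases with those of Ndufa4l2 on the other strand, which averaged 2.23 ± 2.04 FPKM in stiff gels and 8.32 ± 4.11 FPKM in soft gels (SD, n = 3; limma adjusted p = 0.0777).

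The calls of the 3 serine synthesis enzymes depended on soft replicate 1. Without it, Psat1, Phgdh and Psph rose in stiff gels, with log2 fold changes of 0.30 ± 0.067, 0.28 ± 0.070 and 0.36 ± 0.097 (SE; limma adjusted p = 0.0178, 0.0288 and 0.0393). Mean FPKM in stiff gels and in soft replicates 2 and 3 was then 109 and 87.8 for Psat1, 95.1 and 77.9 for Phgdh, and 8.10 and 6.10 for Psph. That fit called 7.29% of all tested genes higher, 6.42% lower and 13.7% in either direction, so 3 of 9 members stand beside a larger background than with all libraries. Without any 1 of the other 5 libraries 0 of the 9 genes were called (limma), where the share of all tested genes called was 0.552% (soft replicate 2 left out), 1.77% (soft replicate 3), 0.951% (stiff replicate 1), 3.72% (stiff replicate 2) and 1.21% (stiff replicate 3). In those fits the limma adjusted p of the 3 enzymes ran up to 0.56 for Phgdh, 0.918 for Psat1 and 0.26 for Psph. The other 6 genes stayed uncalled without soft replicate 1, with adjusted p from 0.151 for Trib3 to 0.932 for Shmt2.

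**Figure D2:**
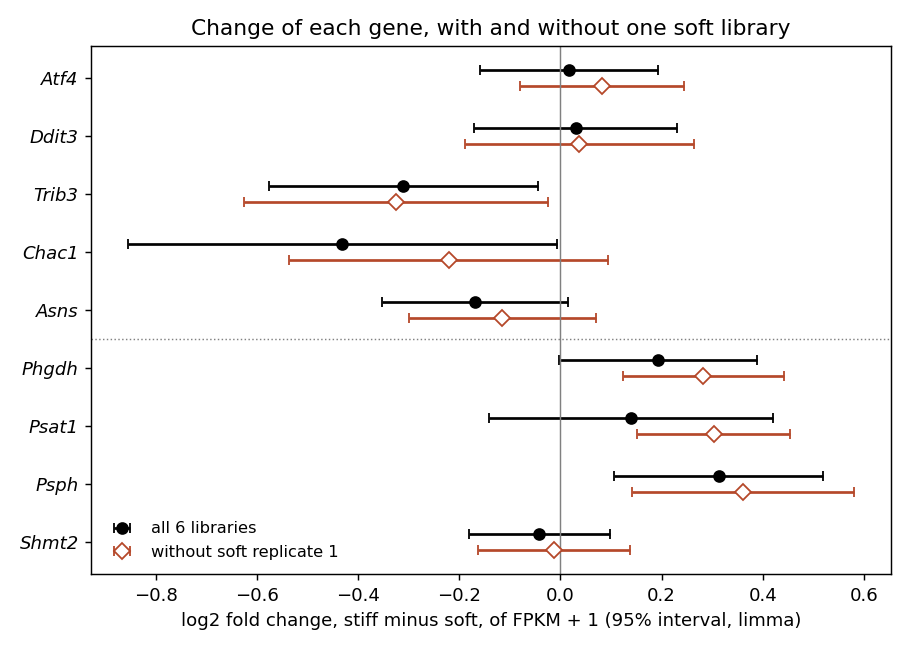
Log2 fold change of FPKM + 1, stiff minus soft (horizontal axis), with its 95% interval by limma, for the ATF4 axis (above the dotted line) and serine synthesis (below it). Filled circles use all 6 libraries and open diamonds leave out soft replicate 1. The intervals of Psph (above 0) and Trib3 (below 0) clear 0 in both fits. Those of Phgdh and Psat1 do so only in the second fit, and that of Chac1 only in the first. The intervals are not adjusted for the number of genes tested. By adjusted p, Psph, Phgdh and Psat1 were called only without soft replicate 1, and Trib3 and Chac1 in neither fit.

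Soft replicate 1 was high for most of the 9 genes. It was the highest soft library for 7 of the 9 genes, against 43.5% of all tested genes, and the highest of all 6 libraries for 5. The mean deviation of Phgdh, Psat1 and Psph from their 6-library means, on the log2(FPKM + 1) scale, was 0.087, 0.053 and 0.18 in stiff replicates 1 to 3 and 0.092, -0.24 and -0.18 in soft replicates 1 to 3. This mean of 3 genes put soft replicate 1 within the stiff range, but singly only Phgdh lay within it; Psat1 was above every stiff library and Psph below every one. For Trib3, Chac1 and Asns the mean deviation was -0.16, -0.017 and -0.28 in stiff replicates 1 to 3. In soft replicates 1 to 3 it was 0.32, -0.02 and 0.16, so by this mean soft replicate 1 was farthest from the stiff libraries. Singly, soft replicate 1 was the highest library for Chac1 (0.64) and Asns (0.19). For Trib3 soft replicate 3 (0.25) lay above soft replicate 1 (0.13). The summed level of supporting cell markers in soft replicate 1 was 580 FPKM, the highest of the soft libraries. Its sums of glial (129 FPKM), mesenchyme (631 FPKM), hair cell (33.2 FPKM) and neuron markers (26.7 FPKM) were also the highest of the soft libraries, while those of endothelial (391 FPKM) and macrophage markers (4.58 FPKM) were the lowest. The part of these in its serine enzyme levels was not tested.

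**Figure D3:**
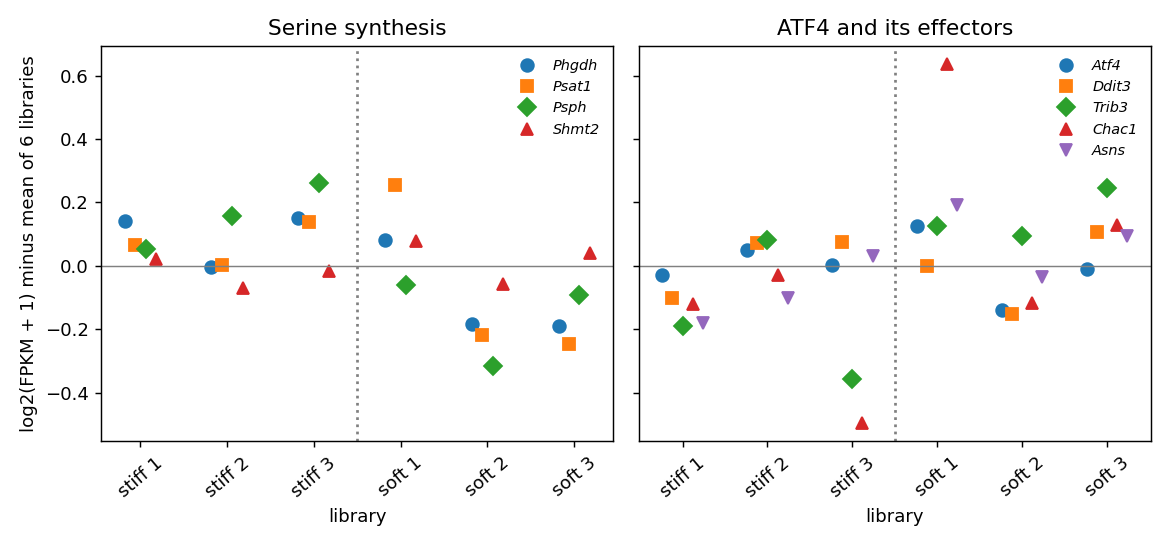
Log2(FPKM + 1) of each gene minus its mean over the 6 libraries (vertical axis), by library, for serine synthesis genes (left) and for Atf4 and its effectors (right); each symbol is 1 gene. In soft replicate 1, Chac1 reaches 0.64 and Psat1 0.26, while in soft replicate 2 Psph is at -0.32 and Psat1 at -0.22.

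By the rule for likeness, the tested genes nearest to the mean standardized profile of the 9 genes over the 6 libraries were Dkc1, Riox2, Atg101, Ubtd2 and Ube2cbp, with root mean square distances of 0.399 to 0.415 in SD units. The members themselves lay 0.43 to 1.01 from that mean, so it stands for them loosely. That profile was highest in soft replicate 1 (0.89) and lowest in soft replicate 2 (-0.89). Dkc1 had 22.5, 24.3 and 24.3 FPKM in stiff gels and 27.3, 20.4 and 24.0 FPKM in soft gels, and none of the 5 was called (limma adjusted p from 0.973 to 0.991).

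Genes around this pathway were counted in 7 lists of 137 genes in all, 132 of them tested. Of these, 2 rose and 4 fell (limma), which is 4.55% against 5.81% of all tested genes, and the median log2 fold change was -0.017 against 0.027. Among 27 further ATF4 targets that were tested, 1 rose and 3 fell, against 3.13% of all tested genes higher and 2.68% lower. Their median was -0.019. Atf3, a stress-induced bZIP factor gene, had 42.4, 44.3 and 34.5 FPKM in stiff gels, against 23.7, 24.8 and 29.1 FPKM in soft gels (log2 fold change 0.62 ± 0.11 SE, limma adjusted p = 0.0159). Ddit4, the gene of an inhibitor of mTORC1 that hypoxia also induces, had 62.2, 68.0 and 66.5 FPKM in stiff gels, against 91.5, 98.2 and 88.4 FPKM in soft gels (-0.49 ± 0.066 SE, adjusted p = 0.00918).

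Cebpb, which encodes a C/EBP factor and possible partner of ATF4, had 17.0, 17.7 and 12.02 FPKM in stiff gels, against 24.3, 38.0 and 40.6 FPKM in soft gels. Its log2 fold change was -1.08 ± 0.19 (SE; limma adjusted p = 0.018), the largest of the list. Hmox1, the haem oxygenase gene, also an NRF2 target, had 10.9, 14.5 and 10.9 FPKM in stiff gels and 15.2, 20.6 and 21.02 FPKM in soft gels (-0.60 ± 0.14 SE, adjusted p = 0.0411). Every stiff library was on one side of every soft library for all 4 of these genes, against 25.9% of all tested genes. The 4 were named because this fit called them, so their separation adds no support of its own. Leaving out 1 library ended the call of Atf3 (without soft replicate 2 or stiff replicate 1, adjusted p = 0.0759 and 0.0788), and of Cebpb and Hmox1 without soft replicate 2 or 3 or stiff replicate 1 or 3 (up to 0.0826 and 0.152). The call of Hmox1 also ended without the filter (0.072) and without the intensity trend (0.0509). Ddit4 was called in each of these fits. Of the same list, and named after their values were seen, Ndrg1 and Jdp2 were not called (-1.07 and 0.36, limma adjusted p = 0.0527 and 0.126). Under other settings with all 6 libraries, Ndrg1 was lower with the replicate number as a block (limma adjusted p = 0.0215) and by limma-voom (0.0317). Jdp2 was higher with that block (0.0323).

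Supply of serine and one-carbon units was covered by 2 lists. Of 13 tested amino acid transporters 1 rose and 0 fell, with a median log2 fold change of 0.02. The gene that rose was Slc1a4, which encodes ASCT1, a carrier of serine, alanine and cysteine. It had 29.1, 25.8 and 29.2 FPKM in stiff gels, against 23.9, 16.7 and 17.7 FPKM in soft gels (0.52 ± 0.12 SE, limma adjusted p = 0.041). Its soft replicate 1 was again the highest soft library, as for Phgdh, Psat1 and Psph. Without soft replicate 1 the change was 0.67 (adjusted p = 0.000862), and the call ended without any 1 of the other 5 libraries (adjusted p up to 0.143), without the filter (0.0686) and without the intensity trend (0.0515).

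Of 18 tested folate cycle genes 1 fell and 0 rose, with a median of 0.057. This was Mthfd1l, the mitochondrial formate-releasing enzyme that acts downstream of SHMT2, at 5.73, 6.48 and 5.59 FPKM in stiff gels, against 8.07, 7.47 and 7.64 FPKM in soft gels (-0.33 ± 0.075 SE, limma adjusted p = 0.0376). The call ended with the replicate number as a block and without the filter (limma adjusted p = 0.0633 and 0.0634), and without soft replicate 2 or 3 or stiff replicate 1 or 3 (up to 0.139). Aldh1l2, a mitochondrial folate enzyme gene named after its values were seen, was not called in that fit, but was lower with median-ratio scaling (-0.35, limma adjusted p = 0.049), without the intensity trend (-0.33, 0.0419) and by limma-voom (-0.44, 0.0211). The q of Aldh1l2 in the authors' deposited table was 0.00285.

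With all 6 libraries, limma on log2(FPKM + 1) called no gene of the eIF2 pathway upstream of ATF4 or of the other arms of the ER stress response, while Xbp1 lay just outside the threshold and passed it under other settings. Among 21 genes of eIF2 kinases, eIF2 and eIF2B subunits, phosphatase adaptors and related genes, Dele1 among them, 0 were called. Of these, 3 had an unadjusted p under 0.05 (limma), against 21.7% of all tested genes. Dele1, which relays mitochondrial stress to an eIF2 kinase, came nearest to a call. It was at 27.0 ± 0.853 FPKM in stiff gels and 23.4 ± 1.05 FPKM in soft gels (SD, n = 3, limma adjusted p = 0.0951). The 4 eIF2 kinase genes, named for their role and outside the naming rule, had mean levels in stiff and soft gels of 21.7 and 20.5 FPKM (Eif2ak1), 9.41 and 10.2 FPKM (Eif2ak2), 8.88 and 9.50 FPKM (Eif2ak3) and 11.1 and 10.9 FPKM (Eif2ak4), with limma adjusted p from 0.392 to 0.921. Of 23 tested genes of the IRE1 and ATF6 arms 0 were called. An unadjusted p under 0.05 (limma) was found for 4, against 21.7% of all tested genes. Xbp1, whose spliced messenger encodes the IRE1 arm's factor, was at 111 ± 5.14 FPKM in stiff gels and 138 ± 12.6 FPKM in soft gels (SD, n = 3; limma adjusted p = 0.0517). Its log2 fold change was -0.32, and with all 6 libraries it fell in stiff gels with median-ratio scaling, with the replicate block and by limma-voom (adjusted p = 0.0491, 0.0494 and 0.0361). The q of Xbp1 in the authors' deposited table was 0.00269.

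None of 20 tRNA synthetase genes and none of 12 mitochondrial chaperone and protease genes were called. At an unadjusted p under 0.05 (limma) there were 0 of either, against 21.7% of all tested genes. The nearest were Tars, at 37.1 ± 0.907 FPKM in stiff gels and 40.7 ± 2.47 FPKM in soft gels, and Lonp1, at 33.3 ± 0.471 and 36.6 ± 2.06 FPKM (SD, n = 3; limma adjusted p = 0.28 and 0.257). Limma-voom on rebuilt reads called 2 higher and 7 lower of the 132 genes of the 7 lists, against 7.84% of all tested genes in either direction. In the authors' deposited table, 2 of these 132 genes were higher and 6 lower at a q under 0.05, against 4.09% and 5.37% of all tested genes. Without soft replicate 1, limma called 7 higher and 10 lower, 12.9% of the 132 genes against 13.7% of all tested genes. Stc2, among the 10, passed the filter on low values only through soft gels (1.99 FPKM, against 0.933 FPKM in stiff gels). Named after their values were seen, Xbp1 (-0.39, adjusted p = 0.00518), Ndrg1 (-1.32, 0.0061), Dele1 (0.23, 0.0446) and Amt, a glycine cleavage gene (0.31, 0.0269), were called in that fit.

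**Figure D4:**
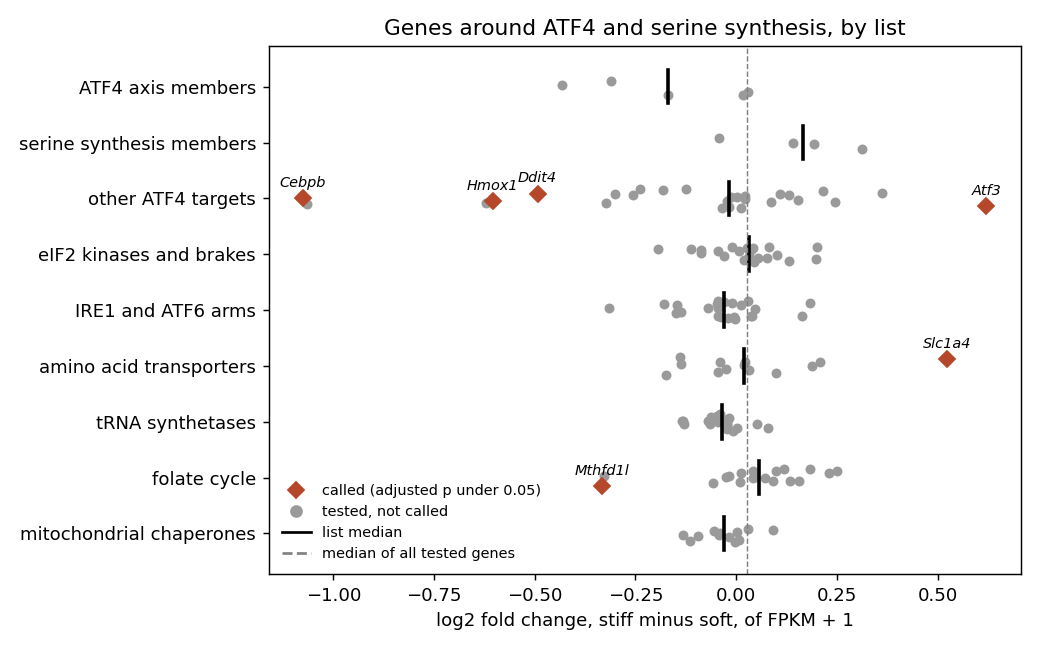
Log2 fold change of FPKM + 1, stiff minus soft (horizontal axis), of each tested gene (points) in the 2 sets of members and the 7 lists around them; diamonds passed the test with all 6 libraries, bars are list medians and the dashed line is the median of all tested genes (0.027). The 6 called genes are Atf3 and Slc1a4 on the higher side and Ddit4, Cebpb, Hmox1 and Mthfd1l on the lower side, and 0 members are among them.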

How the data were processed

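RNA-seq libraries (TruSeq RNA v2, Illumina HiSeq) from stiff gels (3) and soft gels (3) were analysed from 1 deposited table. The authors deposited FPKM for each library; the header does not name this unit, which was inferred from the values. The submitters' processing notes name TopHat2 2.1.1 (an aligner), DESeq2 and the build mm10. The read counter and annotation are not given in the sources used here. In the deposited table the base mean is a signal, the authors' mean normalized count; the log2 fold change, its error and statistic (score), fold ratio, p-value and q-value are the authors' comparison, per the file headers. Whole reads were rebuilt from FPKM and base mean: 100.0% of values came out whole within 0.05 reads. Every member had 55 reads or more in each library.

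Genes with a mean of at least 1 FPKM in either group were fitted with limma 3.58.1 (R 4.3.3, eBayes with trend) on log2(FPKM + 1). All 6 libraries were fitted together, without a block, with Benjamini-Hochberg adjustment over all tested genes. The test was checked on simulated data with independent libraries. How often that check recovered changes as small as those of the members is not given here. Errors are SE for fold changes and SD for FPKM. Alternatives changed the pseudocount, filter, scaling, variance trend, block, tool or 1 library at a time. Named were all members, in each list the called genes (at most 4, by adjusted p) or else the gene with the lowest adjusted p, and the 5 nearest genes. The members and lists were chosen with earlier results of these data known. Coordinates are from GENCODE M21 (GRCm38, that is mm10).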

Additional observations from a re-analysis of the deposited data

How the results depend on the processing

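With all 6 libraries, 0 of the 9 genes were called under each of the 9 other settings (pseudocounts of 0.1 and 0.5, no filter or a stricter one, median-ratio scaling, no intensity trend, the replicate block, limma-voom, and the authors' deposited table). The planned quasi-likelihood count test was not run, because the table holds FPKM; limma-voom on rebuilt reads, chosen after seeing the data, took its place. Leaving out 1 library gave 0 to 3 members higher and 0 lower. Over those fits the log2 fold change ranged from 0.15 to 0.28 for Phgdh, 0.052 to 0.30 for Psat1 and 0.23 to 0.37 for Psph. It changed sign for Atf4 (-0.049 to 0.083) and Ddit3 (-0.039 to 0.091), and for Atf4 also with median-ratio scaling (-0.012) and in the authors' deposited table (-0.015). Of 135 member values over 15 settings, 126 kept sign and call, 6 changed sign and 3 gained a call. Over all genes 369 were higher and 316 lower with all libraries, 482 and 632 in the authors' deposited table, and 50 to 859 higher and 15 to 756 lower without 1 library. Of the genes in the 7 lists, 0 to 7 were higher and 1 to 10 lower without 1 library, 1 and 2 without the filter, 1 higher without the trend, and 7 lower by limma-voom. The cause of these shifts was not tested, beyond fewer libraries or more genes tested.

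The labels do not say whether libraries with the same replicate number were paired. Their deviations from the group means correlated at r = 0.0087, 0.22 and -0.21. No stiff library correlated best with its own number. Soft replicate 2 did, with 0.22 for stiff replicate 2 against 0.047 and -0.25 for stiff replicates 1 and 3. With 3 libraries in each group these correlations cannot decide whether the numbers mark pairs. With the replicate block, 381 genes were higher and 329 lower, and 0 members were called. Depth limits Trib3 most, with 55 reads in its lowest library.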

Other observations

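The deposited table assigns 4 genes to L-serine biosynthesis, and these are the 4 serine members. It places 33 genes in glycine, serine and threonine metabolism. Of the 22 tested ones that are no members, 1 was lower and 0 were higher in stiff gels (limma), with a median log2 fold change of 0.078. That gene, named after its values were seen, was Chdh, which encodes the mitochondrial choline dehydrogenase, at 1.63 ± 0.206 FPKM in stiff gels and 2.89 ± 0.329 FPKM in soft gels (SD, n = 3). Its log2 fold change was -0.56 ± 0.099 (SE), with a limma adjusted p of 0.0165. Among 17 other tested genes of amino acid biosynthesis 0 were called (limma), with a median of 0.042. The table places 36 genes in the intrinsic apoptotic response to ER stress, Atf4, Ddit3, Trib3 and Chac1 among them. Of the 29 other tested ones 1 rose and 3 fell (limma), 13.8% against 5.81% of all tested genes, and their median log2 fold change was -0.04. Beside Cebpb, and likewise named after their values were seen, Pmaip1, the gene of the BH3 protein NOXA, averaged 0.565 ± 0.0984 FPKM in stiff gels and 1.59 ± 0.306 FPKM in soft gels (SD, n = 3; limma adjusted p = 0.0124). Pmaip1 passed the filter on low values only through soft gels, so its place in that count was tied to its direction. Casp12, a caspase gene, averaged 1.23 ± 0.480 FPKM in stiff gels and 2.63 ± 0.484 FPKM in soft gels (adjusted p = 0.0332). Tmem117, a membrane protein gene, was the one that rose, at 39.5 ± 3.96 FPKM in stiff gels and 25.4 ± 4.38 FPKM in soft gels (adjusted p = 0.0229). The calls of Chdh, Pmaip1, Casp12 and Tmem117 each ended without soft replicate 2 and without stiff replicate 1. They also ended without soft replicate 3, except for Pmaip1, and without stiff replicate 3, except for Chdh. The limma adjusted p in those fits ran up to 0.0784 for Chdh, 0.0625 for Pmaip1, 0.124 for Casp12 and 0.0984 for Tmem117.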
